A study of Mus musculus with 14 samples.

Results

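Intermittent H3K9ac regions of regenerating mouse liver were defined as stretches of the genome in which some libraries, but not all, had a called peak. Overlapping peaks of 12 libraries were merged into 57979 regions. Of these, 6416 (11.1%) had a peak in 6 to 11 libraries and were kept, after regions with a peak in 5 or more libraries of 1 title group and at most 1 of the other had been left out (259 regions). A further 12375 regions had a peak in all 12 libraries and 38929 in 1 to 5. The members were thus chosen by the peak calls themselves, so the number of libraries per region is a description here and was not tested.

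H3K9ac is acetylation of histone H3 at lysine 9. The libraries were made by chromatin immunoprecipitation with an antibody to this mark, from livers taken 12 h after partial hepatectomy of C57BL6/J males that were 2 to 3 months old. Partial hepatectomy is the surgical removal of part of the liver that starts regrowth. The series examined how delaying the fall in blood glucose after the surgery affects the mark. Titles gave 6 d22 and 6 pbs libraries, and 2 pooled inputs, 1 per title group, served as background in peak calling. Group and input therefore cannot be told apart in the calls or the fold enrichment. Titles and treatment labels contradict each other: the d22 libraries are labelled as vehicle (PBS), the pbs libraries as dextrose (22.5% in vehicle), and both inputs as dextrose. Libraries are therefore named by title alone, and neither title is read as a treatment. Nothing states whether 1 library came from 1 mouse, so the tests measure the spread between libraries.

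H3K9ac is laid down by histone acetyltransferases of the GCN5 and PCAF type and removed by histone deacetylases. It is concentrated over the start sites of active genes and is also found at active enhancers, where it is usually weaker. In liver, genes of hepatocyte identity and housekeeping genes carry it in most cells. Genes used by rarer cell types, or by a cell only in some states, contribute acetylated chromatin from only some of the cells in the tissue.

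The promoters of 6 genes named below are shown because they mark the range of CG content among intermittent start sites: the 3 with the most and the 3 with the fewest CG dinucleotides among the 40 named genes whose start-site window lay in an intermittent region, of 67 named. Each run is the 250 bases before the start site in RefSeq GRCm38.p6, 5′ to 3′ on the gene's strand, in lower case with each CG in capitals. The windows are chr5:22344706-22344955 (Reln, minus strand), chr1:191575545-191575794 (Dtl, minus strand), chrX:93632156-93632405 (Pola1, minus strand), chr6:141856221-141856470 (Slco1a4, minus strand), chr7:27028840-27029089 (Cyp2a12, plus strand) and chr3:142620413-142620662 (Gbp2, plus strand).
Reln: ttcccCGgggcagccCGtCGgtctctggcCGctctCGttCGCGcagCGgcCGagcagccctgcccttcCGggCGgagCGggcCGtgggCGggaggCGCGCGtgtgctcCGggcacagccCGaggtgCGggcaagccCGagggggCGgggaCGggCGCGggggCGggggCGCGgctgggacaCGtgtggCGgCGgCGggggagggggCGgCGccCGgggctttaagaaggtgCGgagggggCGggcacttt
Dtl: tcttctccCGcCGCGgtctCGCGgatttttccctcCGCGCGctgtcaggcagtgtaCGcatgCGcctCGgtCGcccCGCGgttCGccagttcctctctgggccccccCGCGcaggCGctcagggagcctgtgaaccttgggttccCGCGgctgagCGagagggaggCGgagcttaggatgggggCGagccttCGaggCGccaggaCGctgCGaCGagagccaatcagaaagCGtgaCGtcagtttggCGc
Pola1: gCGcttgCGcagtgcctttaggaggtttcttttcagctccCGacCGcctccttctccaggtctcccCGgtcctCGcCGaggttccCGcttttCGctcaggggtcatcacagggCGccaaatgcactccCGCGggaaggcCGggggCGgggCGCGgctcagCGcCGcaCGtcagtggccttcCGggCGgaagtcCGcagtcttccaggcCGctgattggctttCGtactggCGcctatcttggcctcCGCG
Slco1a4: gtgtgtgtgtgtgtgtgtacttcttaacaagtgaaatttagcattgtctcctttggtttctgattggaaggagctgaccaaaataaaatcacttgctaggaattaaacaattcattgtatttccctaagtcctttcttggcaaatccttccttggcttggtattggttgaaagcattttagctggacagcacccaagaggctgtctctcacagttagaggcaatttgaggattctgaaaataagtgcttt
Cyp2a12: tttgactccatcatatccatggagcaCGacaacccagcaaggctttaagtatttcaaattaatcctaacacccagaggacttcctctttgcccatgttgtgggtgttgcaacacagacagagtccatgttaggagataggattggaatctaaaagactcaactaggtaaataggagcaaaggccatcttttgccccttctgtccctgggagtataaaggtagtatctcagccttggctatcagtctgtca
Gbp2: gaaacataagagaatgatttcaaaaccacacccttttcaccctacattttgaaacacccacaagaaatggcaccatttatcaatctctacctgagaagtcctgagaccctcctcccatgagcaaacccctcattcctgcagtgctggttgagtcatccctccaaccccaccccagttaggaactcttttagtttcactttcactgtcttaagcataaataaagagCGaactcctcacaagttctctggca
Reln, a secreted glycoprotein that marks stellate cells in liver, had 37 CG in its run. Dtl, a substrate receptor of a cullin ubiquitin ligase active in S phase, had 31, and Pola1, the catalytic subunit of DNA polymerase alpha, had 27. Slco1a4, an organic anion transporter of hepatocytes, had 0, while Cyp2a12, a cytochrome P450 of steroid metabolism, and Gbp2, an interferon-induced GTPase, had 1 each. The regions behind them were called in 6 libraries for Reln, 8 for Pola1 and Gbp2, and 11 for Dtl, Slco1a4 and Cyp2a12. Both ends of the CG range thus held regions called in few and in many libraries.

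Over all start sites, the promoters of intermittent regions were intermediate in CG content. The 1124 windows of 300 bases (250 before to 50 after a start site) that overlapped an intermittent region, of 1002 protein-coding genes, held a median of 15 CG (quartiles 7 and 25). The median was 22 (15 and 30) for 10054 windows in regions with a peak in all 12 libraries, 13 for 947 windows in regions with a peak in 1 to 5, and 4 for 9117 windows with no peak. Windows with fewer than 5 CG made up 13.3% of the intermittent ones, 4.58% of those with a peak in all 12 and 57.5% of those with none. No test was run over windows, which are not replicates.

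**Figure D1:**
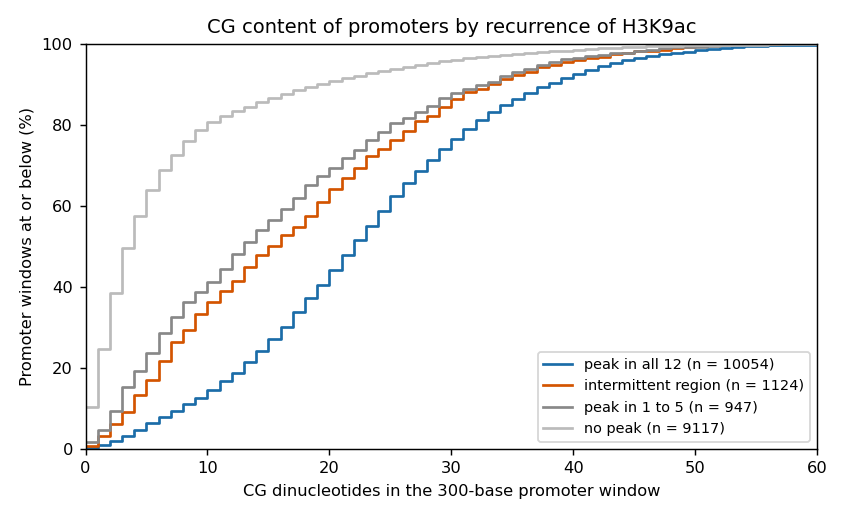
Cumulative percentage of 300-base promoter windows (y axis) with at most a given number of CG dinucleotides (x axis), by the most recurrent region over the window. The line of intermittent regions (n = 1124) runs close to that of regions with a peak in 1 to 5 libraries (n = 947), between the lines for a peak in all 12 (n = 10054) and for no peak (n = 9117).

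Short motifs were counted in the same windows on both strands. GGGCGG, the core of the GC box, was in 59.1% of the intermittent windows, 67.3% of those with a peak in all 12 and 46.2% of all 21263 windows. CCGGAAG, a core of ETS factor sites, was in 7.65% of intermittent windows against 20.7% with a peak in all 12 and 11.6% of all windows. TATAAA, the TATA box, was in 8.72%, 6.08% and 12.6% in the same order. CACGTG, an E-box, was in 6.94%, 10.7% and 7.84%. AGATAA, the core of sites for factors of the GATA family, was in 8.36%, 5.48% and 9.65%, and TTTGAA, the core of the cell-cycle element CHR, in 14.9%, 10.9% and 15.99%. The GC box, ETS and E-box letters each hold a CG, so their shares are not separate from CG content, and none of these matches is evidence of binding. Of the printed runs, Cyp2a12 held the TATA box, Reln and Pola1 held the GC box and the ETS core, and Gbp2 held the interferon-stimulated element, which was in 4.00% of intermittent windows and 3.35% of all windows.

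MicroRNA hairpins lay in 17 intermittent regions, against 121 overlaps with regions called in all 12 libraries and 32 with regions called in 1 to 5. MicroRNAs are short RNAs that pair with target messages mainly through their seed, bases 2 to 8, shown here in capitals. The mature sequences of 3 of these hairpins are printed, chosen after their values were seen as microRNAs with described roles in liver metabolism or hypoxia.
mmu-miR-802-5p: uCAGUAACaaagauucauccuu
mmu-miR-148b-3p: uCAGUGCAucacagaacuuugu
mmu-miR-210-3p: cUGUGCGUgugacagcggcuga
The 3 seeds differ. The region over Mir802 (chr16:93368009-93369977) was called in 11 libraries with a median fold enrichment of 20.8, the highest of the 17. The region over Mir148b (chr15:103284298-103286671) was called in 10 libraries at 11.7, and that over Mir210 (chr7:141220652-141223309) in 9 libraries at 12.0. Fold enrichment is the authors' value for a peak, its tags over the local background. A library with several peaks in a region counts with its highest value, and the median is over the libraries with a peak. H3K9ac over a hairpin does not tell whether the microRNA is transcribed from that region. The Mir7684 hairpin shares its region with Cyp2d11.

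Depth and peak number differed between libraries. They held 6343891 (d22 4) to 13259411 (pbs 1) tags after filtering. The library d22 4 stood apart, with 44585 peaks where the others had 26352 to 30780, and with 15916 regions called in no other library where the others had 494 to 2141. No 2 libraries were copies of each other. All 28 secreted hepatocyte genes had an end in a region called in all 12 libraries, as had 2 of 21 muscle genes and 0 of 25 neuronal genes. Tags in a bulk sample cannot tell fewer cells of a type from less acetylation per cell.

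The library d22 4 decided part of the membership. It had a peak in 3318 of the 6416 intermittent regions, the fewest, while pbs 1 had one in 5658, the most, d22 1 in 5564 and pbs 6 in 5458. Of the 1464 regions that missed only 1 library, d22 4 was the missing one in 636 (43.4%), followed by pbs 3 with 156 (10.7%), while each of the other 10 was missing in 12 to 129. Found again from the other 11 libraries, with a peak in 6 to 10 of them, the intermittent regions numbered 5349. Many values below are therefore also given without d22 4.

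Deeper libraries tended to call more intermittent regions. The same calls chose the regions, so this is a description with no test. Pearson's r over the 12 libraries was 0.652 and Spearman's rho 0.559, and r was 0.863 within the 6 pbs libraries and 0.558 within the 6 d22 libraries. Without d22 4 and pbs 3, the 2 libraries farthest from the median depth, r was 0.282 and rho 0.236. Leaving out 1 library at a time, r was lowest without d22 4 (0.529) and next lowest without pbs 1 (0.594). The shallow libraries pbs 3 (6385610 tags) and d22 4 called 3914 and 3318 members, yet d22 5, with 12537064 tags, called only 4127.

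**Figure D2:**
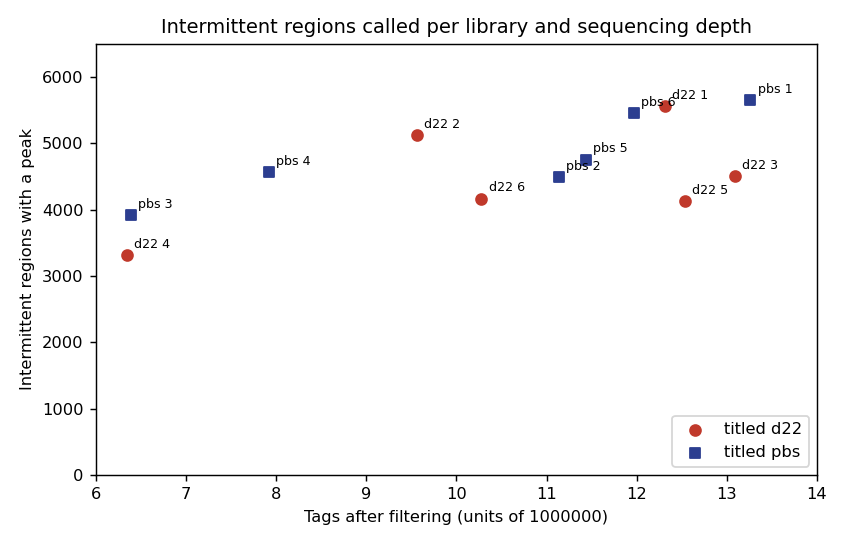
Intermittent regions with a peak in each library (y axis, of 6416) against filtered tags, in units of 1000000 (x axis), circles for d22 and squares for pbs. The libraries pbs 1, d22 1 and pbs 6 lie highest, at 5458 to 5658, while d22 4 lies lowest at 3318 and d22 5 and d22 3 lie low for their depth.

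Intermittent regions lay mostly away from gene ends. At a gene end means within 1 kb of the first or last base of a protein-coding gene in the RefSeq table, which gives no strand. Of the 6416 regions, 1472 (22.9%, Wilson 95% interval 21.9 to 24.0, which covers counting error only) were at a gene end, 3088 (48.1%) inside a gene and 1856 (28.9%) between genes. Regions with a peak in all 12 libraries were at a gene end in 72.6%, inside in 16.7% and between genes in 10.7%. Regions with a peak in 1 to 5 libraries were at a gene end in 9.00%. Without d22 4 the share of intermittent regions at gene ends was 22.5%. With only peaks of a score (defined below) of 100 or more, 4121 intermittent regions were left and 35.6% of them were at a gene end.

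Within the intermittent class the gene-end share was 17.7% for regions with a peak in 6 libraries, 16.7% for 7, 21.7% for 8, 22.1% for 9, 26.5% for 10 and 29.7% for 11. The step to 12 libraries (72.6%) was far larger than any step within the class, and the 1382 regions with 5 libraries, just outside it, were at 14.5%. By start sites, which the sequence table gives with strand, 1114 of 6224 intermittent regions (17.9%) lay within 1 kb of the start of a protein-coding gene, against 64.7% of those with a peak in all 12. Regions on chromosomes not in that table were left out of these 2 shares.

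**Figure D3:**
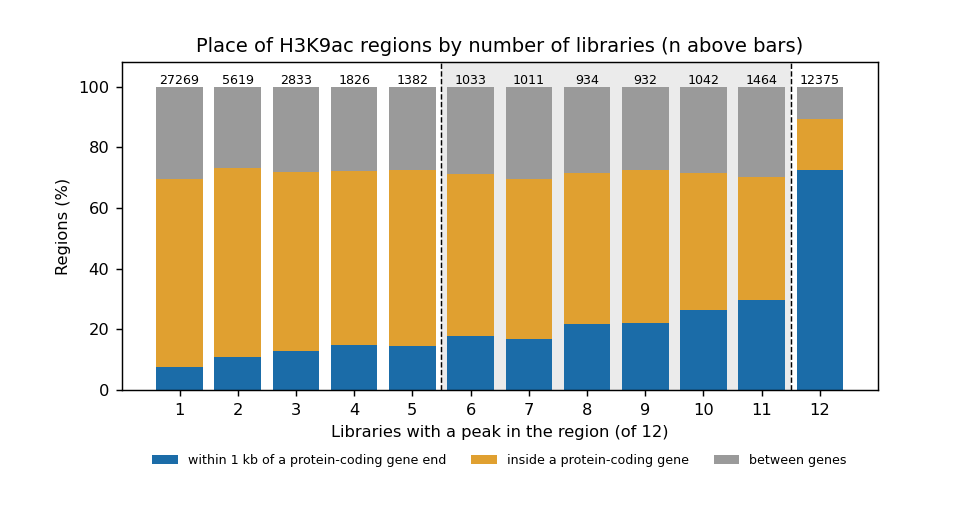
Percentage of regions (y axis) at a protein-coding gene end, inside a gene or between genes, by the number of libraries with a peak (x axis), leaving out the 259 regions almost only in 1 title group, with the number of regions above each bar. The shaded band marks the intermittent regions, whose gene-end share lies between 16.7% and 29.7%, below the 72.6% of regions with a peak in all 12.

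Chromosome X differed from this pattern. Its 123 intermittent regions were at a gene end in 59.3%, as against 22.9% of all 6416, and its 250 regions with a peak in all 12 in 78.4%. Intermittent regions between genes were a median of 17.3 kb from the nearest protein-coding gene, and 433 of 1856 (23.3%) were over 50 kb away. The median gap from an intermittent region to the nearest region with a peak in all 12 was 13.9 kb, and 854 (13.3%) lay within 1 kb and 2770 (43.2%) within 10 kb of one.

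Intermittent regions were weaker and narrower than those with a peak in all 12, and wider than those with a peak in 1 to 5. Their median fold enrichment was 12.2 (quartiles 11.0 and 13.7), compared with 30.6 (20.7 and 42.0) in regions with a peak in all 12 and 11.1 in regions with a peak in 1 to 5. With all peaks of a library in a region added, a library held a median of 25 tags there against 119. The median density was 33.0 against 60.8 tags per kb of called length. A library had a single peak in the region in 86.0% of these cases against 63.6%. Fold enrichment is taken from the highest of several peaks, which raises it more often in regions with a peak in all 12. The merged region was 1430 bp wide (median) against 2752 bp with a peak in all 12 and 583 bp with a peak in 1 to 5. Merging more libraries can only widen a region. The length called per library had a median of 734 bp, against 1933 bp with a peak in all 12 and 541.5 bp with a peak in 1 to 5. In all, the intermittent regions covered 10.3 Mb and those with a peak in all 12 covered 41.3 Mb.

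Strength rose with the number of libraries within the class and stepped at its upper edge. The 2 are not independent, since a peak is called by a limit on its p-value. Median fold enrichment was 11.0 at 5 libraries, just outside, 11.3 at 6, 11.9 at 8, 12.8 at 10 and 13.9 at 11, and 30.6 at 12. The median score, 10 times the negative log10 of the authors' p-value, was 70.7 at 5 libraries, 76.2 at 6, 132 at 11 and 665 at 12, where the calling limit was 50. Median tags per 1000000 filtered tags of a library went from 1.81 at 6 libraries to 3.28 at 11 and 11.6 at 12, and median tags per called region from 19 to 35 and 119. At the other limit of the rule, the 123 regions with 5 d22 and 2 pbs libraries, kept, had a median fold enrichment of 10.9, and the 55 with 5 and 1, left out, one of 10.3. The 169 regions with 2 d22 and 5 pbs libraries and the 105 with 1 and 5 both had 12.0. Members at gene ends (12.4), inside genes (12.0) and between genes (12.4) had alike medians of fold enrichment.

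**Figure D4:**
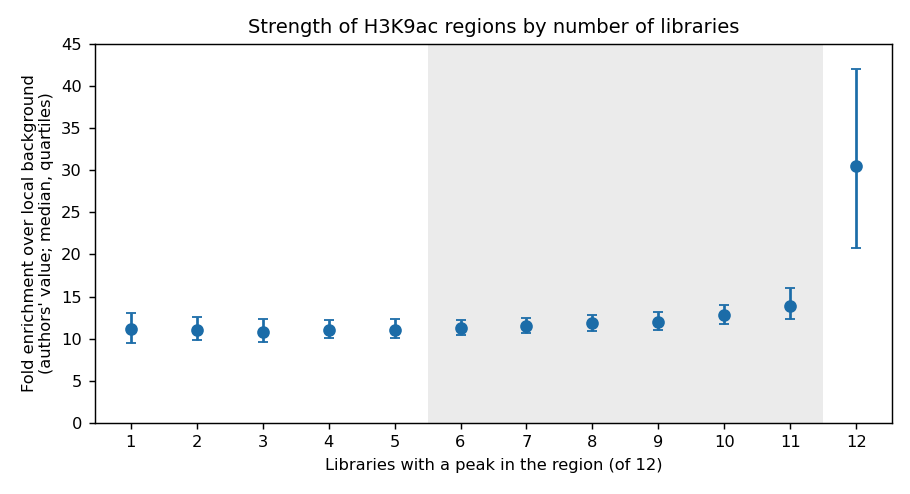
Median fold enrichment over local background (y axis, the authors' value at the highest peak of each library, bars are quartiles over regions) by the number of libraries with a peak (x axis). The medians lie between 10.8 and 13.9 for 1 to 11 libraries and reach 30.6 for 12.

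Proliferation genes stood among the named genes at intermittent regions. A gene was placed by the most recurrent region at either of its ends. Of 21900 protein-coding genes, 10329 had an end in a region with a peak in all 12 libraries and 1181 (5.39%) at best in an intermittent one. Of 26 genes of G2 and mitosis, 13 had a region in all 12 and 9 (34.6%) an intermittent one: Tpx2, Ccna2, Ube2c, Top2a, Mki67, Bub1, Cdk1, Ccnb1 and Kif23. Without d22 4 the list had 8 genes at intermittent regions and all protein-coding genes 948 (4.33%). The remaining genes of the list were called in 1 to 5 libraries.

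Tpx2, which activates Aurora kinase A on spindles, was called in 11 libraries (chr2:152847765-152848610) with a fold enrichment of 17.6, the highest of the list. Its level was 1.46, 1.92 and 2.45 RPM, the tags in a region per 1000000 filtered tags of the library (lowest, median and highest of 6 d22 libraries) and 2.04, 2.36 and 3.43 in 5 pbs libraries, so the groups overlapped. Mki67, the classical marker of cycling cells, was called in 6 libraries (chr7:135716572-135717296) at 1.38, 1.73 and 2.07 in 2 d22 libraries and 1.28, 1.33 and 2.01 in 4 pbs libraries. Levels here and below are of the libraries with a peak only, since a library without a peak has no value. The median level of Mki67 over its 6 libraries was 1.36 RPM, below the median of members called in 6 libraries (1.81).

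Cdk1, the kinase that drives mitotic entry, was called in 5 d22 libraries at 1.07, 2.22 and 3.09 and in 3 pbs libraries at 3.85, 4.07 and 4.35 RPM. It was the 1 gene of the list whose group ranges did not overlap, with pbs above d22 on both scalings. Over all 6416 members, pbs lay above d22 without overlap in 298 (4.64%) and d22 above pbs in 79 (1.23%). Over the regions with a peak in all 12 the shares were 2.45% and 0.0727%. Those shares also reflect calls that chose the members, so nothing is read from them. Ranges over few libraries also separate more easily, so the shares are no yardstick for a gene called in few. When tags were scaled instead to those in regions with a peak in all 12, a choice made after seeing the data, the counts were 128 (2.00%) and 201 (3.13%), beside 0.711% and 0.638% of the regions with a peak in all 12. The median log2 ratio of d22 over pbs moved from -0.18 to 0.04 over the members with that scaling, so a direction is given below with both.

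Of 32 genes of the G1 to S step and replication, 25 had a region in all 12 libraries and 5 an intermittent one. These were Pola1, Prim1 (the primase that makes primers for it), Uhrf1 (which keeps DNA methylation through replication), Mcm6 (a helicase subunit) and Gins2 (its partner). Pola1 (chrX:93631469-93632859) had 1.07, 1.44 and 3.03 RPM in 3 d22 libraries and 1.72, 3.39 and 4.31 in 5 pbs libraries. Uhrf1 (chr17:56302641-56304895) had 2.68, 4.93 and 6.78 in 6 d22 libraries and 1.25, 2.40 and 6.18 in 5 pbs libraries. All 5 genes overlapped between the groups on both scalings.

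Markers of non-parenchymal cells formed another group. Of 27 endothelial markers, 14 had a region in all 12 libraries and 7 (25.9%) an intermittent one, 5 without d22 4. They were Cdh5 (the endothelial cadherin), Tek and Kdr (receptors for angiopoietins and for VEGF), Plvap (a protein of endothelial diaphragms), Stab2 (a scavenger receptor of sinusoids) and the factors Ets1 and Sox18. Kdr (chr5:75976518-75979282) had 1.28, 4.81 and 6.33 RPM in 5 d22 libraries and 2.82, 4.96 and 10.9 in 6 pbs libraries. Cdh5 (chr8:104101513-104102864) had 1.12, 2.03 and 3.31 in 3 d22 libraries and 1.71, 4.07 and 4.68 in 5 pbs libraries. Ets1 was the 1 marker whose ranges did not overlap, pbs above d22, and they overlapped with the other scaling.

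Of 24 macrophage and Kupffer cell markers, 4 had a region in all 12 libraries and 5 (20.8%) an intermittent one, 4 without d22 4. C1qc and C1qa, complement subunits made by macrophages, were called in 8 and 9 libraries. Mrc1, the mannose receptor, was called in 11, Laptm5, a lysosomal protein of blood cells, in 8 and Tyrobp, a signalling adaptor, in 6. C1qc (chr4:136889720-136893163) had 2.14, 4.09 and 4.79 RPM in 5 d22 libraries and 2.10, 2.26 and 9.94 in 3 pbs libraries. The groups overlapped for all 5.

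Other cell types had few. Of 23 stellate and fibroblast markers Reln and Hand2 had intermittent regions and of 17 cholangiocyte markers Elf3 and Pkhd1, each list with 1 gene left without d22 4. So had, of 24 lymphocyte markers Cd4 (by a region it shares with Gpr162), and of 13 neutrophil markers Elane. Epor, the erythropoietin receptor, was among the erythroid markers with such a region. The region of Elane, a neutrophil protease (chr10:79884882-79886127), had 2.15, 2.60 and 5.67 RPM in 3 d22 libraries and 0.988, 1.44 and 1.67 in 4 pbs libraries, with d22 above pbs on both scalings. Ranges of so few libraries separate easily, and both scalings use the same tags. The Elane region lay 5142 bp from one with a peak in all 12, and no neutrophil marker had an end in a region called in all 12. How far cell composition sets these calls was not tested.

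Several lists of hepatocyte function had few genes or none in the class. None of the 28 secreted hepatocyte genes, 22 cholesterol synthesis genes or 18 genes of gluconeogenesis and glycogen had an intermittent region as the best at its ends. Of 24 hepatocyte transcription factors 1 did, Creb3l3, a membrane-bound factor of fasting lipid metabolism, called in 10 libraries with a fold enrichment of 9.90. Against the 5.39% of all protein-coding genes, counts of 0 or 1 in lists of this length are not a result about the lists. Of 80 ribosomal protein genes 1 did, Rpl19, which shares its region with Cacnb1. Of 29 immediate early genes 2 did, Dusp5, an ERK phosphatase, and Nr4a1, an orphan nuclear receptor, and 1 did without d22 4. Of these 2 lists, 76 ribosomal protein genes and 25 immediate early genes had a region in all 12.

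**Figure D5:**
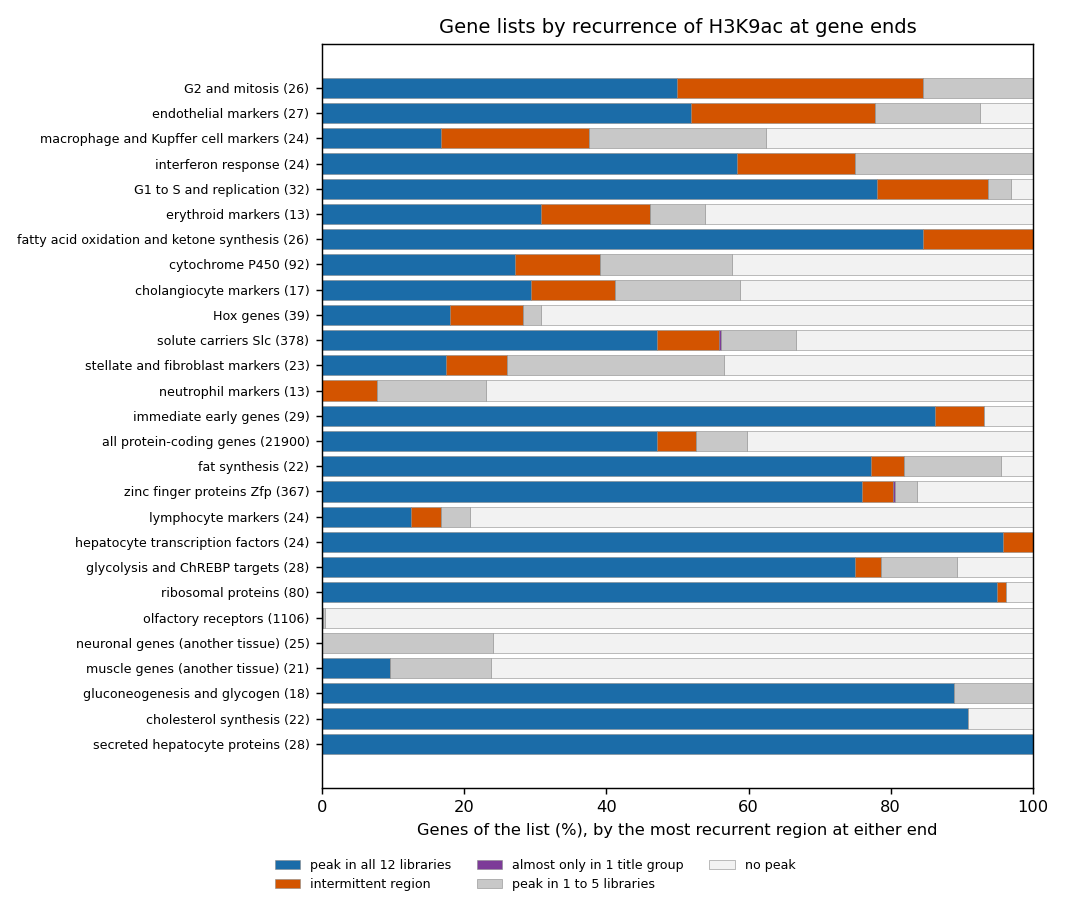
Percentage of the genes of each list (x axis) by the most recurrent H3K9ac region at either gene end, with the number of genes in brackets. Intermittent regions take 34.6% of the G2 and mitosis genes and 25.9% of the endothelial markers against 5.39% of all protein-coding genes.

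Some genes of fatty acid use lay in the class. Of 26 genes of fatty acid oxidation and ketone synthesis, 22 had a region in all 12 libraries and 4 (15.4%) an intermittent one: Cyp4a14 and Cyp4a10, cytochromes P450 that omega-hydroxylate fatty acids, Ehhadh, the bifunctional enzyme of peroxisomal oxidation, and Acot1, a cytosolic acyl-CoA thioesterase. All 4 are known targets of the fasting receptor PPAR-alpha. All 4 were called in all 6 pbs libraries and in fewer d22 libraries, and in all 4 every pbs value lay above every d22 value. Over all members, 1581 (24.6%) were called in all 6 pbs libraries and in fewer d22 libraries, and pbs lay above d22 without overlap in 4.64% on this scaling and 2.00% on the other. The calls made that split. The median log2 ratio of d22 over pbs was -1.31 over the 4, against -0.18 over all members. With the other scaling the ratios of the 4 lay between -2.14 (Cyp4a14) and -0.936 (Acot1), against a median of 0.04 over all members. These ratios use only libraries with a peak, so the calls bear on them and they are a description. Levels of the 22 genes with a region in all 12 are not given here. Without d22 4 all 4 were still intermittent.

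Cyp4a14 (chr4:115493493-115496347) had 1.25, 1.68 and 4.87 RPM in 3 d22 libraries and 7.55, 9.06 and 13.9 in 6 pbs libraries. Cyp4a10 (chr4:115517809-115519724) had 1.58, 2.68 and 3.35 in 5 d22 libraries and 5.60, 7.17 and 9.34 in 6 pbs libraries. The 2 genes are neighbours in the Cyp4a cluster of chromosome 4. Ehhadh (chr16:21785679-21788484) had 1.85, 3.78 and 5.82 in 5 d22 libraries and 7.92, 8.68 and 13.4 in 6 pbs libraries. Acot1 (chr12:84009215-84011088) had 2.72, 3.39 and 4.06 in 2 d22 libraries and 4.67, 6.77 and 10.6 in 6 pbs libraries. With the other scaling the ranges stayed apart for Cyp4a14, Cyp4a10 and Acot1 and overlapped for Ehhadh. Reads of near-identical copies, as in the Cyp4a and Acot clusters, can be placed on the wrong copy, so these single-gene values are uncertain.

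Scd1, the desaturase of fat synthesis, was the 1 gene of 22 in that list with an intermittent region and had the opposite order. Its region (chr19:44404843-44408809), called in 11 libraries, had 4.63, 6.42 and 10.0 RPM in 6 d22 libraries and 1.44, 1.58 and 5.18 in 5 pbs libraries. The ranges overlapped through the highest pbs value and were apart, d22 above pbs, with the other scaling. Acaca, the acetyl-CoA carboxylase of the same pathway, had an intermittent region inside the gene (chr11:84196874-84198238) called in all 6 d22 libraries at 1.68, 3.33 and 4.47 and in 2 pbs libraries at 1.36 and 1.92, overlapping on this scaling and with d22 above pbs on the other. Both genes thus had more d22 than pbs libraries with a peak, a split that the calls chose.

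Of 92 cytochrome P450 genes, 25 had a region in all 12 libraries and 11 (12.0%) an intermittent one, 8 without d22 4. The strongest was Cyp2a12 (chr7:27028889-27031649), the promoter of which is printed above with 1 CG. It had 7.02, 10.1 and 12.1 RPM in 5 d22 libraries and 13.7, 14.4 and 15.7 in 6 pbs libraries, apart on this scaling and overlapping on the other. Only d22 4 lacked a peak there. Cyp1a2, the inducible oxidase of caffeine and arylamines, was called in 9 libraries at a fold enrichment of 10.9. The other members of this list were Cyp4a32, Cyp2d11, Cyp4f14, Cyp2d40, Cyp4b1, Cyp46a1 and Cyp4f16, beside Cyp4a14 and Cyp4a10.

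Of 378 solute carriers, 33 (8.73%) had an intermittent region, 26 without d22 4. Slco1a4 (chr6:141854168-141856726), the promoter of which has no CG in the printed run, had 1.46, 1.95 and 6.48 RPM in 5 d22 libraries and 5.73, 8.01 and 10.6 in 6 pbs libraries, which overlapped. Slc25a4, the ADP/ATP carrier of muscle and heart mitochondria, was called in 3 d22 and 3 pbs libraries with pbs above d22 on both scalings. With 3 libraries per group, ranges separate easily. Of 24 interferon response genes, 14 had a region in all 12 and 4 an intermittent one: Oasl2, Ifit2, Gbp2 and Ifit1. The groups overlapped for all 4, and Gbp2 (chr3:142619848-142621014) had 1.14, 2.30 and 2.53 in 3 d22 libraries and 1.41, 1.92 and 3.17 in 5 pbs libraries. Of 39 Hox genes 4 did, with Hoxb7 and Hoxb8 sharing 1 region, of 367 Zfp zinc finger genes 16 (4.36%, below the 5.39% of all protein-coding genes), and of 28 genes of glycolysis and ChREBP targets 1, Pfkp. Without d22 4 the Zfp genes numbered 10 and the genes of glycolysis 0. Of 1106 olfactory receptors 1 did, Olfr1393, by a region it shares with Mgat1.

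Most of the strongest intermittent regions at gene ends lacked a peak in the same library. Of the 12 with the highest fold enrichment, 11 lacked a peak only in d22 4, and so did all 5 of the strongest between genes. The first was the region of Dtl and Ints7 (chr1:191574086-191577433) at 33.0, above the median of regions with a peak in all 12. It had 8.33, 9.34 and 13.8 RPM in 5 d22 libraries and 10.1, 11.4 and 17.5 in 6 pbs libraries. The others with this gap included Mrpl28 with Pgap6 (32.6), Mrpl16 (30.7), Med6 (29.7), Hsd17b11 (28.7), Nipal1 (28.7), Slc17a2 (28.0), Mrpl45 (27.1), Ap2a1 with Tsks (26.7) and Klhl36 (26.3). Mrpl16, Mrpl28 and Mrpl45 encode proteins of the mitochondrial ribosome, and Med6 a subunit of Mediator. The exception was Ywhaz, an adaptor of phosphoproteins, called in 6 libraries at 26.1.

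Most of these had overlapping groups. Hsd17b11, a dehydrogenase of lipid droplets (chr5:104018802-104022766), had 8.56, 9.55 and 14.1 RPM in 5 d22 libraries and 17.2, 17.9 and 20.6 in 6 pbs libraries, apart on both scalings. Slc17a2 (chr13:23805625-23809607) had 6.52, 9.71 and 13.2 in 5 d22 libraries and 14.3, 18.7 and 22.3 in 6 pbs libraries, apart on this scaling and overlapping on the other. Ywhaz (chr15:36770753-36771646) had 1.58 and 2.20 in 2 d22 libraries and 2.43, 3.50 and 4.67 in 4 pbs libraries, apart on both. Few libraries called Ywhaz, so its ranges separate easily. The other 9 overlapped on both scalings.

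Found from the 11 libraries without d22 4, the strongest at gene ends were Cyp4a14 (24.6), Cyp4a10 (23.2), Herc6 (23.0), Tmem44 (21.5), Ehhadh (20.9) and Tmem218 (20.9). Herc6, an interferon-induced ubiquitin ligase, lacked a peak only in pbs 4 of these 11, and Tmem44 only in pbs 2. Herc6 (chr6:57580515-57581970) had 3.00, 4.05 and 5.02 RPM in 5 d22 libraries and 2.80, 4.85 and 5.77 in 5 pbs libraries. This list was made after the place of d22 4 had been seen.

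The 5 strongest intermittent regions between genes included those near Cep85l (42.0, chr10:53397144-53399074, 17261 bp from the gene), Tspan2 (34.7), Arhgap5 (32.6) and Ly6e (28.4). That near Tspan2 lay 55057 bp from the gene and 315442 bp from the nearest region with a peak in all 12. The region near Cep85l had 3.83, 7.55 and 8.99 RPM in 5 d22 libraries and 7.87, 8.79 and 11.1 in 6 pbs libraries. Of the 5, only that near Arhgap5 had a median level (12.4) above the 11.6 of regions with a peak in all 12, while all but that near Ly6e had a fold enrichment above their 30.6.

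The widest were of another kind. A region of 36814 bp over predicted genes of chromosome 6 (chr6:47650312-47687125, Gm36327 and neighbours) was called in 8 libraries with a median of 355 RPM, and a second of 29897 bp over Gm40363 (chr6:47736960-47766856) in 11 libraries with 236. A region of 16270 bp at Sfi1, a centrosome gene (chr11:3121862-3138131), was called in 11 libraries with 66.5. The remaining 2, near Dsg2 (8577 bp) and Frmd8 (7280 bp), had 11.0 and 3.93. The first 3 levels are far above the median of 2.26 over all members, but RPM adds tags over the called length. That length had a median of 32687, 17876 and 7141 bp in these 3, against 734 bp over all members. Their fold enrichments were 16.7, 12.8 and 9.73, against 12.2 over all members.

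Among the regions with the most uneven split, which the calls chose, Pacsin2, Acaca and Mybpc1 had a peak in all 6 d22 and 2 pbs libraries, and Adam24, Skint6 and Map3k20 in all 6 pbs and 2 d22 libraries. The region near Adam24 (chr8:40659597-40661655) had 1.30 and 6.17 RPM in the 2 d22 libraries and 5.33, 6.55 and 8.97 in the 6 pbs libraries. That in Pacsin2 (chr15:83405658-83406408) had 1.07, 1.94 and 2.52 in the 6 d22 libraries and 2.01 and 2.67 in the 2 pbs libraries. These 2, and that near Skint6, overlapped between the groups on both scalings where a peak was called. Map3k20 had 1.76 and 1.78 in the 2 d22 libraries and 1.96, 3.43 and 3.95 in the 6 pbs libraries, apart on this scaling and overlapping on the other. Mybpc1, like Acaca, overlapped on this scaling and had d22 above pbs on the other. Over the class, 1924 regions (29.99%) had more d22 libraries, 3197 (49.8%) more pbs libraries and 1295 (20.2%) equal numbers. As shares of the libraries left without d22 4, these were 2530, 3250 and 636. The groups then differ in size, and shares are equal only where every library left has a peak. These counts therefore cannot be set against the first ones. Each title group had its own pooled input, so a group difference in calls cannot be told apart from one of inputs.

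Away from gene ends, 4944 intermittent regions lay in or nearest to 3077 genes. Of these genes 2069 had 1 such region, 417 had 3 or more and 104 had 5 or more. Dapk1, Lpp, Rreb1 and Zmiz1 had 12 each, and genes with 10 included Actn4, Arhgap26, Itpr1 and Rbpms. Long genes lead this order, with Lpp at 599 kb and Arhgap26 at 775 kb, but Actn4, an actin crosslinker, spans 69.1 kb. Counts were not adjusted for length.

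Some hepatocyte regulators had several intermittent regions inside the gene beside stronger ones; these genes were chosen after their values were seen. Nr1h4, the bile acid receptor FXR, held 8 (fold enrichment 8.90 to 16.4) and 3 regions with a peak in all 12 (up to 50.02). Igf1, the growth factor secreted by liver, held 7 (9.77 to 16.8) and 2 with a peak in all 12 (up to 87.7). Nr5a2, a nuclear receptor of bile acid synthesis, held 6 and 2, Egfr, the receptor for growth factors of regeneration, 6 and 1, and Nfix, a nuclear factor, 8 and 2. In each, every intermittent region was below the strongest region with a peak in all 12 of the same gene.

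The d22 and pbs libraries were compared by the strength and width of their peaks. These values are not independent of the choice, since the calls decided which members entered from each library. Only peaks past the calling limit have a value. The medians of fold enrichment and of tags per kb here are over all peaks of a library, not the highest per region. The tests therefore compare called peaks alone and cannot tell whether the mark at intermittent regions differs between the groups. The test was a two-sided exact permutation test over the 924 splits of 12 libraries, with adjustment over 4 measures. Median fold enrichment at intermittent regions, as a ratio to that in regions with a peak in all 12 of the same library, averaged 0.552 ± 0.0777 (SD, n = 6) over d22 libraries and 0.531 ± 0.0706 over pbs libraries (n = 6), with an exact p of 0.615. For tags per kb the ratio was 0.626 ± 0.0664 and 0.597 ± 0.0530 in the same order (exact p = 0.411). The called width was 723 ± 130 bp and 765 ± 162 bp (exact p = 0.626). All 3 adjusted p-values were 0.626, and each of these differences was smaller than the SD of at least 1 group. The fourth measure, the share of called members at a gene end, was 24.4 ± 0.948% (SD, n = 6) and 23.4 ± 1.30% (n = 6), given as a description because the calls alone decide it. In every library, intermittent regions had a lower median fold enrichment than regions with a peak in all 12, at a ratio of 0.423 (pbs 6) to 0.663 (d22 4). The choice by calls bears on this order too.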

How the data were processed

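The deposited peak tables of 12 libraries were used, 1 per library, and the 2 pooled inputs, which had none here, were not analysed. The submitters' processing notes name CASAVA 1.8, Novoalign, MACS 1.4.2 and the build mm10. Per the file headers, MACS called each library alone against the pooled input of its title group with a p-value cutoff of 1e-05 and at most 1 tag per position. The deposited values of a peak are, per the file headers, its raw tag count, its score (10 times the negative log10 of its p-value), its fold enrichment, a ratio to local background, and its false discovery rate as a percent.

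Peaks sharing at least 1 bp were merged across libraries. The tags of all peaks a library had in a region were added and given per 1000000 filtered tags (RPM). Of several peaks of a library, the highest fold enrichment and the highest score stood for the region. A region without a peak in a library has no value there, not 0, so a low level may be missing. Genes came from RefSeq GRCm38.p6 (mm10 coordinates; 49997 genes, of which 21900 protein-coding), and start sites from 21263 promoter windows of 17492 genes. The gene lists were 27, and a pattern for histone genes matched no symbol. Named were the 12 strongest members at gene ends, the 5 widest, the 5 strongest between genes, 3 per direction of split and up to 4 genes of each list, besides those said to be chosen later. The members and lists were chosen with earlier results of these data known.

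Group means were compared by exact permutation with Benjamini-Hochberg adjustment and a threshold of 0.05. Tests planned for the number of members called against depth and for their gene-end share are not given, since the calls that chose the members decide both. Analyses used Python 3.11.15, pandas 2.3.3, NumPy 2.4.6, SciPy 1.17.1 and matplotlib 3.10.9, and merging was tested on simulated data. Alternatives were a stricter score, other merging, cover and gene-end windows, leaving out each library, a replicate block and another scaling. A few items are not reported here.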

Additional observations from a re-analysis of the deposited data

Results flagged for a closer look

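Among 20 sets of 6 libraries checked, 3 held a library far from the other 5, where chance gives about 1 in 20 for independent sets. These sets share libraries and calls, so they are not independent and the count is not set against chance. The library d22 4 had 15916 regions called in no other library, where the other d22 libraries had 494 to 1286. The same library had a median false discovery rate of 5.95% over its peaks in intermittent regions, where the other d22 libraries had 21.1 to 27.9%. The library d22 5 had 26.2% of its called intermittent regions at a gene end, where the other d22 libraries had 23.4 to 24.4%.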

How the results depend on the processing

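Only peaks with a score of 100 or more left 4121 intermittent regions, 35.6% of them at a gene end. That share was 24.2% when peaks at most 500 bp apart were merged, 20.8% with a window of 500 bp and 29.2% with one of 2500 bp. In each of these it stayed far below 72.6%, the share of regions with a peak in all 12 at the main setting. The share of those regions under the altered settings was not computed. Leaving out 1 library at a time gave 5349 to 5921 intermittent regions, 22.5 to 23.6% at a gene end. The relation of calls with depth had r = 0.529 to 0.763 in the same series, lowest without d22 4 (0.529) and next without pbs 1 (0.594). The differences between d22 and pbs ranged from 0.00319 to 0.0493 for the fold enrichment ratio, 0.00920 to 0.0441 for the ratio of tags per kb, 0.668 to 1.42 percentage points for the gene-end share and -93.2 to 0.233 bp for the width, whose sign turned without pbs 6 (0.233). None of the 3 tested here, all but the gene-end share, passed under any alternative run, the lowest adjusted exact permutation p being 0.275 without d22 1. With the other scaling, members with pbs above d22 went from 298 to 128 and those with d22 above pbs from 79 to 201. Same-numbered libraries correlated at -0.0057 to 0.159, and only number 2 was above 0.1 (0.159, with 0.0574 as its best other number). Whether the replicate numbers mark a shared block is not stated, and these values cannot tell. With the replicate block the 4 differences are the same by construction, at 0.0210, 0.0288, -42.4 bp and 0.987 percentage points. For the 3 tested, the exact sign-flip permutation p went from 0.406 for tags per kb to 0.6875 for the width. A region without a peak in a library is not shown to lack the mark there.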
